A study of Mus musculus with 57 samples.

Results

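The genes examined were Tfcp2l1, Tbx3, Prdm14, Zfp42, Nr0b1, Nr5a2, Sall4, Stat3, Tdh and Otx2, 10 of the 21951 protein-coding genes of the annotation. The list names pluripotency regulators and sets no threshold on a binding value, although it was drawn up with earlier results of these data known. Binding was read from the peaks whose summit lay within 50 kb of the transcription start site (TSS) of each gene. The cells were KH2 mouse embryonic stem (ES) cells that carried 1 inducible GATA6 transgene, and every group shared that transgene. The 0 h cells were held in 2i medium with LIF, an inhibitor-based medium that keeps ES cells in the naive state. The induced cells were moved to serum medium with LIF and doxycycline, and for the 24 h and 48 h groups doxycycline was later withdrawn, so that medium and GATA6 induction cannot be told apart in a comparison with 0 h. CUT&RUN was run against GATA6 before induction and 2, 4, 8 and 48 h after it. The pluripotency factors NANOG and SOX2 were profiled over the first 8 h (0, 2, 4 and 8 h), and the PrE factors at 24 h only. Each of these 15 groups had 2 peak lists, 30 in all. The study describes its replicates as independent experiments without saying whether they were separate cultures, and the p-values measure the spread between these lists. That spread was estimated for each gene from all lists of a protein and drawn toward a trend over all genes. Of the 57 samples, the other 27 (histone marks, control antibodies and blastocysts) were not analysed here.

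ES cells of the naive state resemble the epiblast (Epi) of the early blastocyst. They hold this state through a network of transcription factors fed by LIF, which acts through STAT3. GATA6 drives the alternative fate of the inner cell mass, the primitive endoderm (PrE), where GATA4 and SOX17 follow it. Of the genes studied, Tfcp2l1, Tbx3, Prdm14 and Zfp42 (REX1) encode transcriptional regulators expressed in naive cells, Nr0b1 (DAX1) and Nr5a2 (LRH1) nuclear receptors, and Sall4 a zinc finger factor that both Epi and PrE cells use. Stat3 encodes the transducer of the LIF signal and Tdh the threonine dehydrogenase on which mouse ES cells depend. Otx2 stands apart from the naive factors, since it encodes a homeobox factor known for the exit from the naive state.

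The 30 lists held 775358 peaks, of which 1323 had a summit near a member. List length ranged from 86 to 79358 peaks for GATA6, from 2255 to 52285 for NANOG, from 11540 to 52574 for SOX2, from 4006 to 8427 for GATA4 and from 27328 to 41979 for SOX17. The background coverage recovered from the peaks was 0.287 and 0.315 fragments per base in the GATA6 0 h lists and 0.928 to 1.34 in the later GATA6 lists. It was 0.865 to 1.31 for NANOG, 0.290 to 0.692 for SOX2 and 1.23 to 1.55 for SOX17. For GATA4 it could not be recovered. Each peak fold is relative to the local background in its own library, so folds are not on one scale between lists or between sites. In GATA6 2 h replicate 1, a fold of 23.9 at a Sall4 site came with 156 fragments over the summit. A fold of 39.7 at a Tdh site came with 92. The rank of a peak by fold within its own list is added at some sites, and it depends in turn on the length of that list. Differences in fold or rank between times or between sites are therefore given as descriptions, with no test. The file and peak names of 6 GATA6 lists disagreed with the record: those named 4, 8 and 48 h were recorded as 8, 48 and 4 h, respectively. The names were followed throughout, in the figures too. Under the record, every GATA6 value given here for 4, 8 or 48 h belongs to 8, 48 or 4 h, respectively.

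The 6 regulatory sequences printed here carry the patterns described next, and each has the summit of the strongest list at their center. Of the sites described, the Otx2 upstream site had the highest GATA6 fold at 4 h. The Tdh intron site was among the highest at 2 h, and GATA6 fold at the Tfcp2l1 intron site was highest in the lists named 8 h. Among the same sites, the Prdm14 downstream site carried the highest SOX2 fold and the Sall4 intron site the highest SOX17 fold. The Otx2 downstream site had GATA6 peaks at 48 h and none at 2 h. Each is 201 bases of the + strand of mm10 (RefSeq GRCm38.p6). Capitals mark GATA motifs (AGATAA or AGATAG or TGATAA or TGATAG), SOX motifs (ACAATG or ACAAAG), the octamer ATGCAAAT and the nuclear receptor motif AAGGTCA, on either strand.
Otx2 upstream site, chr14:48701539-48701739: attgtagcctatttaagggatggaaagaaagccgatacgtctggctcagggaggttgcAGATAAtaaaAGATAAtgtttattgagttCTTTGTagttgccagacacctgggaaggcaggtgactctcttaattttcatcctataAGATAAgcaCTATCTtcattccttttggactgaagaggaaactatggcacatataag
Tdh intron site, chr14:63501745-63501945: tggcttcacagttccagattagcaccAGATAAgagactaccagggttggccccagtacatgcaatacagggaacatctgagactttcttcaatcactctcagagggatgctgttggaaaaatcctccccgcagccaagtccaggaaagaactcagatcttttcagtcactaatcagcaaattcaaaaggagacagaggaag
Tfcp2l1 intron site, chr1:118649699-118649899: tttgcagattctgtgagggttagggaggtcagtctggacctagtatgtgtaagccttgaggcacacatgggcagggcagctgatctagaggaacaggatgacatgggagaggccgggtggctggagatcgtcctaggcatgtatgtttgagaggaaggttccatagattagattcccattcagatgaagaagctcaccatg
Prdm14 downstream site, chr1:13085001-13085201: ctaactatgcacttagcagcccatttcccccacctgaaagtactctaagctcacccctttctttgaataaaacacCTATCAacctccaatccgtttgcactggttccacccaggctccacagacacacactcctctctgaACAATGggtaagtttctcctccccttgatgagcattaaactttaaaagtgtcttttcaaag
Sall4 intron site, chr2:168762219-168762419: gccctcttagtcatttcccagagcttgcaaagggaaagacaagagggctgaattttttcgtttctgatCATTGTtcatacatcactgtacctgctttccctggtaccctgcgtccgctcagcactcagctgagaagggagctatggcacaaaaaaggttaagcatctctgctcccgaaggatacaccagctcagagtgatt
Otx2 downstream site, chr14:48648265-48648465: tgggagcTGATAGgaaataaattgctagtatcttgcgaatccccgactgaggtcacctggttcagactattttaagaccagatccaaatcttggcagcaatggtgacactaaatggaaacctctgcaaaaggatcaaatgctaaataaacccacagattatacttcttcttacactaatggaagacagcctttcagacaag
The Otx2 upstream window held 4 GATA motifs and 1 SOX motif, and the Prdm14 window held 1 of each. The Tdh window and the Otx2 downstream window each held 1 GATA motif, the Sall4 window held 1 SOX motif, and none of these letters occurred in the Tfcp2l1 window. A match describes the letters in the window only.

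GATA6 peaks were found near all 10 members at 2 h, when the median over all genes was 3.5 peaks. The share of all genes with a peak at 2 h was not determined. The 0 h lists held 86 and 882 peaks in all, at lower coverage than the 2 h lists. Of these, 0 and 2 lay near the members, 1 near Prdm14 and 1 near Sall4. Of the 79358 and 62683 peaks of the 2 h lists, 138 and 111 lay near the members. Tbx3 had the most, with 36 and 27 peaks at 2 h, and 0.0638% of all coding genes had a mean as high as its 31.5 ± 6.36 (SD, n = 2). Prdm14 had 17 and 14 peaks, Sall4 14 and 13, Stat3 14 and 12, Otx2 12 and 14, Tfcp2l1 13 and 9, Zfp42 12 and 7, and Nr5a2 8 and 8. The fewest were near Nr0b1, with 6 and 3, and Tdh, with 6 and 4, against a median of 3.5 over all genes. Since the windows of Sall4, Stat3 and Tdh also contain the TSS of Atp9a, Cavin1 and Mtmr9, respectively, a peak there need not belong to the member.

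**Figure D1:**
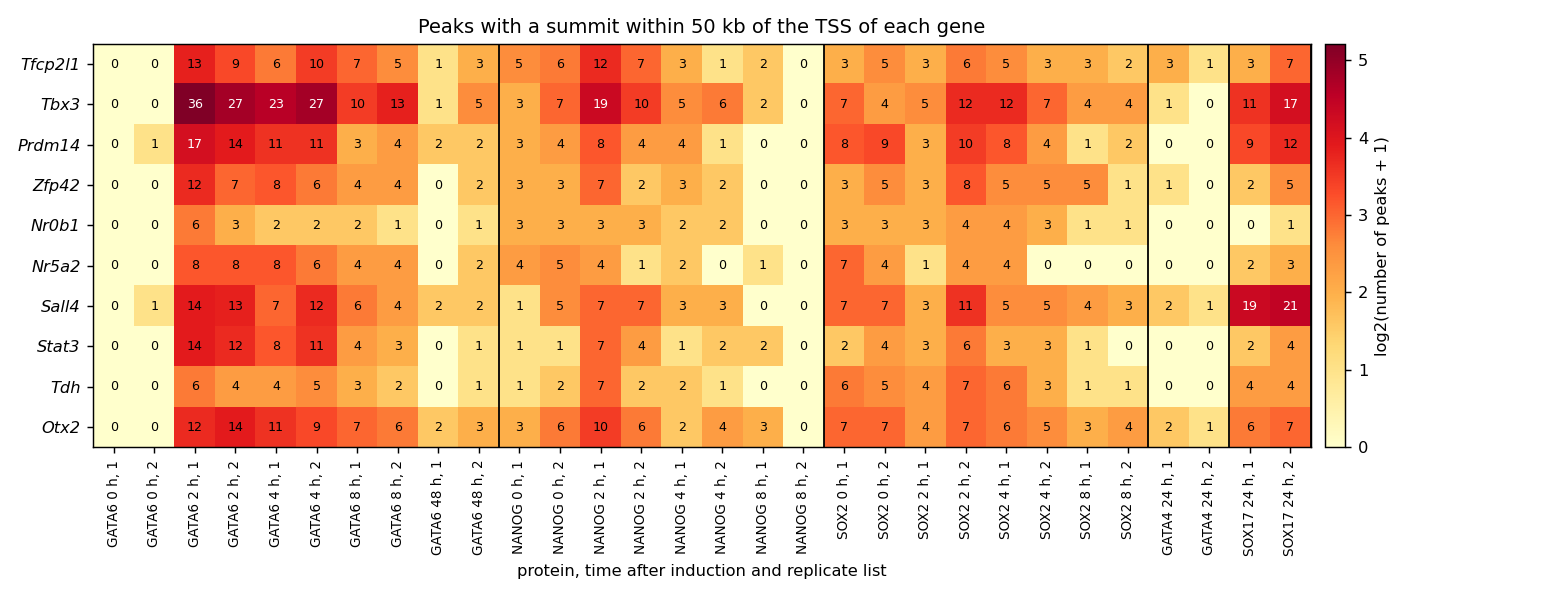
Number of peaks with a summit within 50 kb of the TSS of each gene (rows) in each of the 30 lists (columns, by protein, time and replicate), with color on a log2(number + 1) scale. GATA6 peaks near the members numbered 0 and 2 at 0 h, 138 and 111 at 2 h, and 8 and 22 at 48 h, with the highest numbers of all at Tbx3.

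After 2 h the number of GATA6 peaks near the members decreased, as it did across the genome. The lists held 88 and 99 peaks near the members at 4 h, 50 and 46 at 8 h, and 8 and 22 at 48 h. By limma across all genes with Benjamini-Hochberg adjustment, 4 of the 10 members fell between 2 h and 8 h, against 52.8% of all 18564 genes tested. Prdm14 had 3 and 4 peaks at 8 h, and its difference on the log2(number + 1) scale was -1.88 ± 0.32 (SE, n = 2 and 2, adjusted p = 0.00575). For Stat3 there were 4 and 3 peaks at 8 h (-1.64 ± 0.34, adjusted p = 0.0108), for Sall4 6 and 4 (-1.29 ± 0.39, adjusted p = 0.0341) and for Otx2 7 and 6 (-0.90 ± 0.17, adjusted p = 0.00849). The 2 h and 8 h lists did not overlap for any member, including the 6 that missed the threshold, and 69.7% of all genes likewise had fewer peaks in both 8 h lists than in either 2 h list. The median difference was -1.07 for the members and -1.0 for all genes. CUT&RUN on a population cannot tell binding in fewer cells from weaker binding per cell.

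Between 2 h and 48 h all 10 members fell, by limma, against 82.0% of all genes. Tbx3, with 1 and 5 peaks at 48 h, changed by -3.22 ± 0.49 on the log2 scale (adjusted p = 0.00149), and Stat3, with 0 and 1, by -3.30 ± 0.34 (adjusted p = 0.000295). Otx2 had 2 and 3 peaks and changed by -2.01 ± 0.17 (adjusted p = 0.000143). The other 7 members had between 0 and 3 peaks in either 48 h list and changed by -1.90 to -2.56. The median was -2.32 for the members and -1.87 for all genes. These declines moved with list length, which went from 79358 and 62683 peaks at 2 h to 28676 and 30234 at 8 h and 5933 and 9767 at 48 h. With the GATA6 lists restricted to at most the top 5933 peaks, 1 of the 9 members tested passed in the 8 h comparison (Tbx3, lower) and 1 in the 48 h comparison (Nr0b1, lower), beside 17.6% and 45.8% of all genes in either direction. Under the recorded times 0 and 4 members passed, beside 9.32% and 53.4% of all genes. In the 8 h comparison 2 members (Prdm14 and Otx2) passed without 2 h replicate 1 or 8 h replicate 2 (30.1% and 40% of all genes), and 8 passed without 48 h replicate 1 or replicate 2 (54.9% and 55.2%).

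**Figure D2:**
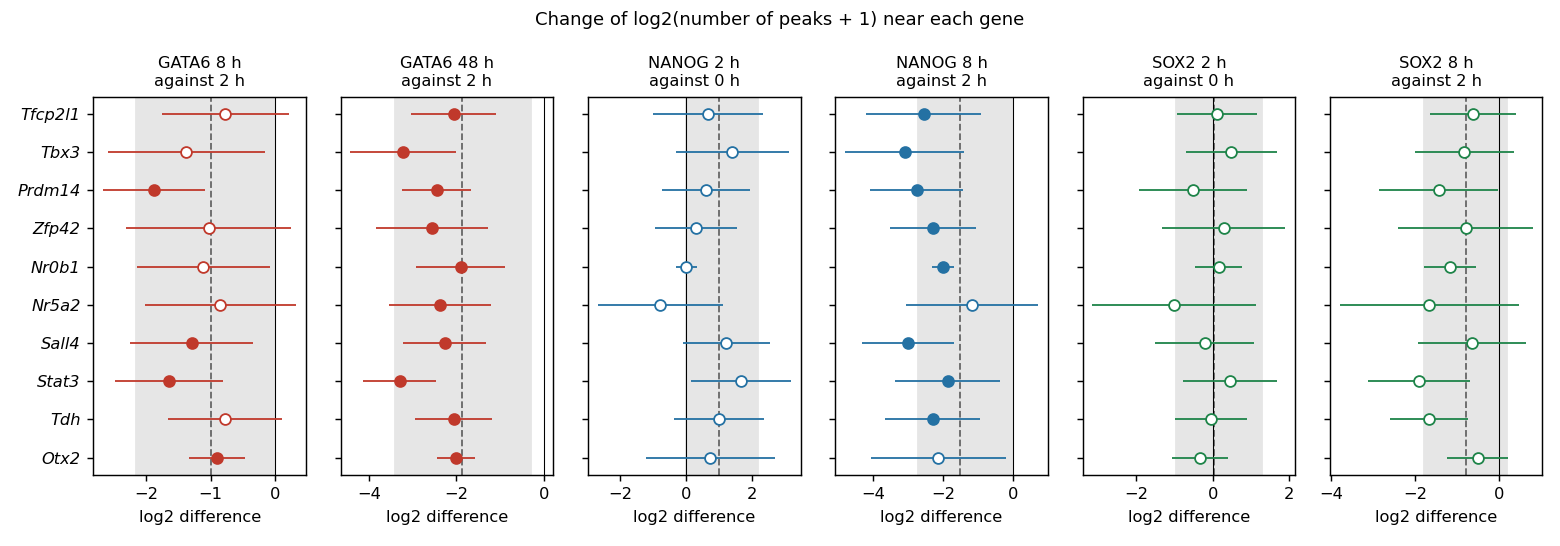
Difference of log2(number of peaks + 1) near each gene for 6 comparisons, as limma estimates with 95% confidence intervals. Each compares 2 and 2 lists, with the spread estimated from all lists of the protein. Filled points passed an adjusted p under 0.05. Gray bands cover the 5th to 95th percentile of all genes tested and dashed lines their median; the filled members lie on the lower side, in both GATA6 comparisons and in NANOG 8 h against 2 h.

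Merging the overlapping peaks of all 30 lists gave 260 sites near the members, 108 of them found in 1 list only. A site can hold several summits, and the absence of a peak from a list means only that the threshold of the peak caller was not reached. GATA6 peaks were present in both 2 h lists at 78 sites, in both 4 h lists at 55, in both 8 h lists at 33 and in both 48 h lists at 6. At 26 sites they were in both lists at 2, 4 and 8 h, of which 8 were at Tbx3 and 4 at Otx2, and at 3 of those sites also at 48 h. Under the record the 26 sites are those of 2, 8 and 48 h. These 3 were 2 sites at Sall4 and 1 at Tbx3. By position, 151 sites were intergenic, 87 intronic, 11 in coding exons and 11 in untranslated exon sequence. The site of highest mean GATA6 fold at 2 h was identified for each member, together with the site of highest mean NANOG 0 h fold. High GATA6 at 2 h and high NANOG at 0 h were thus set by the choice of site, and lower values at other times are not read as a loss.

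At Tfcp2l1 (chr1:118627945-118685168), in an intron at chr1:118647463-118651513, GATA6 fold over background was 24.4 and 17.0 at 2 h, 24.9 and 34.3 at 4 h and 42.1 and 45.5 at 8 h. At 48 h it was 7.17 in 1 list, with no peak in the other. The fold was thus higher in both 8 h lists than in either 2 h list, although the site had been chosen at 2 h. The record places the values of 42.1 and 45.5 at 48 h and the value of 7.17 at 4 h. Among the GATA6 peaks of its own list, the site was in the top 3.21% and 6.10% of 79358 and 62683 peaks at 2 h and in the top 0.213% and 0.261% of 28676 and 30234 at 8 h. The strongest summits at 2 h lay 20496 and 20486 bp downstream of the TSS. Those at 4 h lay at 21852 and 21807 bp and those at 8 h at 21820 and 21854 bp. The site thus held more than 1 GATA6 position, and its 2 h and 8 h values come from different positions. Fragments over these summits numbered 89 and 57 at 2 h and 103 and 105 at 8 h. At each of these times 1 list held 2 peaks in the site, and the weaker is not given. The window printed above, centered on 21854 bp, contains no GATA motif of the 4 forms searched.

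At Tbx3 (chr5:119670669-119684724) the leading GATA6 2 h site was also the leading NANOG 0 h site, in an intron at chr5:119679718-119682615. GATA6 fold was 28.6 and 19.9 at 2 h, 10.1 and 17.1 at 4 h and 7.42 and 11.8 at 8 h, with no peak at 48 h. NANOG fold was 15.2 and 24.9 at 0 h and 24.2 and 22.0 at 2 h, then 9.12 and 6.72 at 4 h, and 7.12 in only 1 of the 8 h lists. The GATA6 2 h summits lay 9405 and 9486 bp from the TSS and the NANOG 0 h summits 9454 and 9427 bp from it, so both proteins were found at 1 intronic position. By rank NANOG was in the top 2.06% and 0.593% of its lists at 0 h and in the top 2.90% of the 8 h list with a peak. SOX2 had a peak in the site in all 8 of its lists, with 17.0 and 19.7 at 0 h and 6.20 and 4.22 at 8 h. The summit of the 6.20 peak lay at 9319 bp, but that of the 4.22 peak lay at 11188 bp, away from the position shared by GATA6 and NANOG.

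Prdm14 (chr1:13113457-13127163) showed the same arrangement at an intergenic site 42.1 kb downstream of its TSS, at chr1:13084380-13086039. Before induction this site carried SOX2 at a fold of 42.4 and 36.2, in the top 0.142% and 0.477% of the SOX2 peaks, and NANOG at 18.4 and 28.6, in the top 0.804% and 0.284% of the NANOG peaks. GATA6 was absent from 1 of the 0 h lists and 5.32 in the other, was 29.5 and 24.2 at 2 h, and was 10.1 and 16.2 at 4 h and 4.80 and 6.36 at 8 h. NANOG was 17.7 and 19.8 at 2 h, 9.65 and 8.27 at 4 h and had no peak at 8 h, where SOX2 was 9.31 and 8.35. The 3 proteins thus had peaks at this site in both lists at 2 h and 4 h, and GATA6 and SOX2 also at 8 h.

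At Zfp42 (chr8:43295063-43306980), GATA6 and NANOG led at different sites. GATA6 peaked 1.5 kb upstream of the TSS, at chr8:43307906-43308775, with 18.8 and 15.2 at 2 h, 11.1 and 13.0 at 4 h, 8.11 and 6.77 at 8 h and 5.73 in 1 list at 48 h. NANOG had no peak there at 0 h and 1 of 6.34 at 2 h. The leading NANOG site lay 13.9 kb upstream, at chr8:43320483-43321574, where NANOG was 9.99 and 14.3 at 0 h, 12.1 and 10.8 at 2 h and 7.51 and 6.72 at 4 h, and where GATA6 reached 10.7 and 11.8 at 2 h. The promoter-proximal site had NANOG in 1 of its 8 lists and the distal one in 6. Tfcp2l1 likewise had its leading NANOG site elsewhere, 2.4 kb upstream of the TSS at chr1:118625352-118627164, with NANOG at 11.0 and 10.3 at 0 h and GATA6 at 15.6 and 16.9 at 2 h.

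The nuclear receptor genes differed from each other. Upstream of Nr0b1 (chrX:86191764-86195947), at chrX:86186527-86188121, GATA6 was 28.6 and 23.7 at 2 h, 18.9 and 28.0 at 4 h and 17.5 and 23.2 at 8 h, and 4.29 in 1 list at 48 h. NANOG at this site was 6.31 and 5.53 at 0 h, 22.9 and 6.13 at 2 h and 8.58 and 8.79 at 4 h. SOX2 there was 4.45 and 11.4 at 0 h and 27.1 and 16.3 at 4 h, so that its 4 h values lay above both 0 h values, in the top 1.56% and 3.81% against the top 71.2% and 14.2% of the SOX2 peaks. The leading NANOG site, 10.6 kb upstream at chrX:86180866-86181703, had NANOG at 7.43 and 19.4 at 0 h and GATA6 peaks at 2 h and 4 h but not later. At Nr5a2 (chr1:136842571-136960448) GATA6 was weakest of all the leading sites, at 9.54 and 5.79 at 2 h and 4.56 and 5.83 at 4 h with no later peak. That intronic site, at chr1:136951975-136954801, already held SOX2 at 14.3 and 10.4 and NANOG at 4.48 and 9.96 at 0 h.

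**Figure D3:**
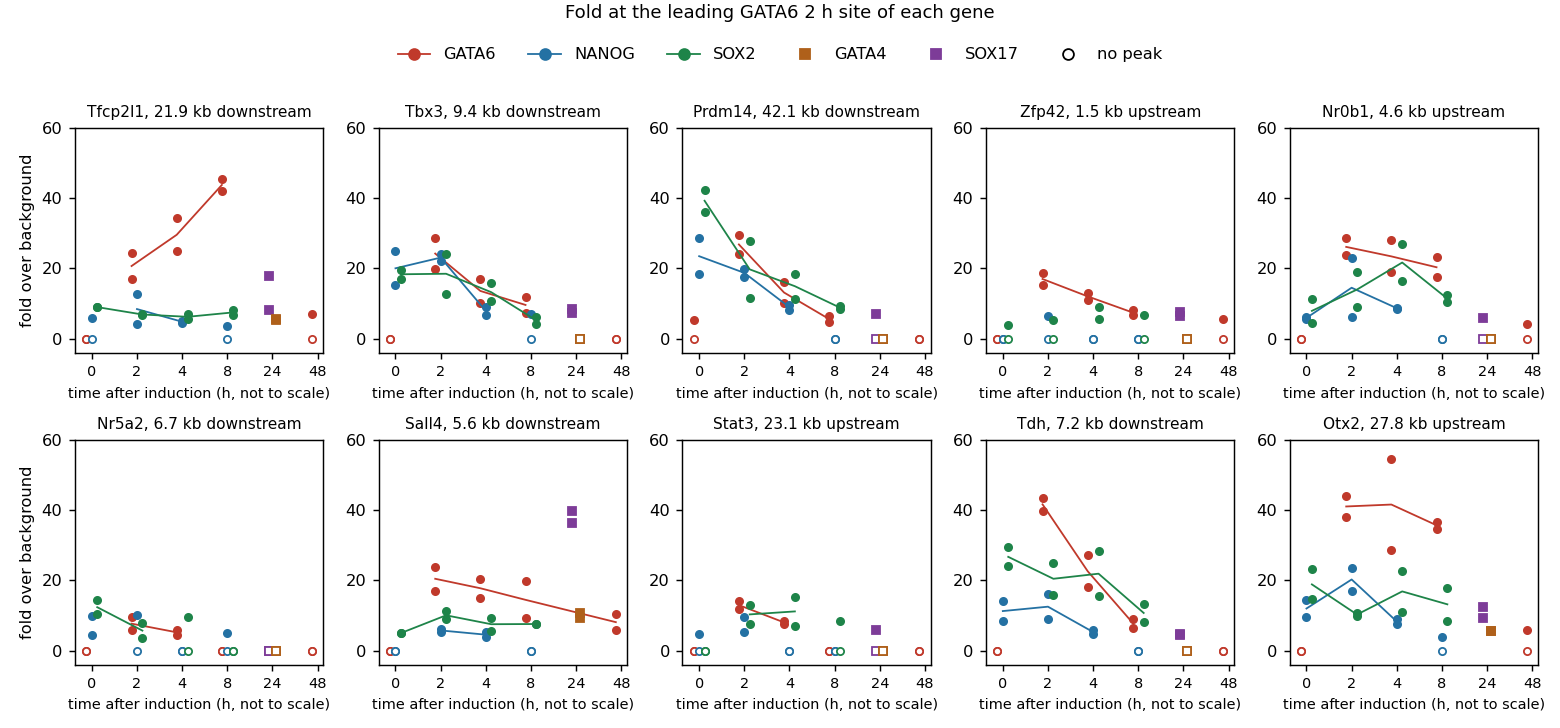
Fold over background at the site of highest mean GATA6 2 h fold of each gene, against time after induction (not to scale), with 1 point per list (n = 2 per group); open points at 0 mark lists with no peak, and lines join the means of groups with a peak in both lists. GATA6 at the Tfcp2l1 site was highest at 8 h by the list names (42.1 and 45.5), recorded as 48 h, and at Tdh at 2 h (39.7 and 43.6), the time of the choice.

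At Sall4 (chr2:168748332-168767943) an intronic site 5.6 kb downstream of the TSS, at chr2:168761923-168764119, had GATA6 peaks in both lists at every time from 2 h to 48 h. The folds were 23.9 and 17.0 at 2 h, 15.1 and 20.4 at 4 h, 9.20 and 19.7 at 8 h and 10.4 and 5.78 at 48 h, and the ranges at 2 h and 8 h overlapped. At 24 h the site carried GATA4 at 9.23 and 10.7 and SOX17 at 36.2 and 39.7, the latter within the top 0.531% and 0.395% of the SOX17 peaks. It had no NANOG peak at 0 h, and NANOG at 6.09 and 5.38 at 2 h. SOX2 had a peak there in every one of its lists, with 4.90 and 5.06 at 0 h and 8.88 and 11.2 at 2 h. The leading NANOG 0 h site of Sall4 was a neighboring intronic one, at chr2:168764436-168765762, with low folds of 4.43 and 5.71.

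Stat3 (chr11:100885098-100939540) had no site with NANOG in both 0 h lists, and its leading GATA6 site lay in an intron of Cavin1, at chr11:100961820-100963008, closer to the TSS of Cavin1 than to that of Stat3. GATA6 there was 14.1 and 11.8 at 2 h and 7.49 and 8.55 at 4 h, with no peak at 8 h or 48 h. NANOG was 4.73 in 1 list at 0 h and 9.51 and 5.40 at 2 h, and SOX2, without a peak at 0 h, was 7.60 and 13.0 at 2 h. At Tdh (chr14:63492347-63509092), the intronic site at chr14:63499850-63502663 had GATA6 folds of 39.7 and 43.6 at 2 h, 18.1 and 27.1 at 4 h and 6.55 and 9.09 at 8 h, and no peak at 48 h. The site held more than 1 summit position. The strongest GATA6 summit of each 2 h list lay 7221 and 7247 bp downstream of the TSS. At 8 h the peak of 6.55 lay at 8677 bp and that of 9.09 at 7261 bp. The strongest SOX2 0 h summits, of fold 24.0 and 29.4, were at 8555 and 8650 bp. NANOG at 0 h was 14.2 and 8.30, with its strongest summits at 8559 and 7106 bp. Both SOX2 0 h lists, both GATA6 8 h lists and GATA6 2 h replicate 2 held 2 peaks in the site. The weaker of these are not given, so no shift of position is read from the strongest summits.

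Otx2 (chr14:48657677-48673819) had its leading GATA6 site 27.8 kb upstream of the TSS at chr14:48700798-48702458, the window with 4 GATA motifs. GATA6 was 38.0 and 44.1 at 2 h, 28.7 and 54.5 at 4 h and 34.7 and 36.7 at 8 h, with 5.99 in 1 list and no peak in the other at 48 h. Through 8 h it was in the top 0.326% to 1.52% of the GATA6 peaks in every list. NANOG at this site was 9.66 and 14.3 at 0 h, 23.6 and 16.9 at 2 h and 9.09 and 7.46 at 4 h. GATA4 was 5.45 and 5.44 and SOX17 12.3 and 9.30 at 24 h, and SOX2 had a peak in all 8 of its lists. The site was present in 26 of the 30 lists, more than any other site described here.

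**Figure D4:**
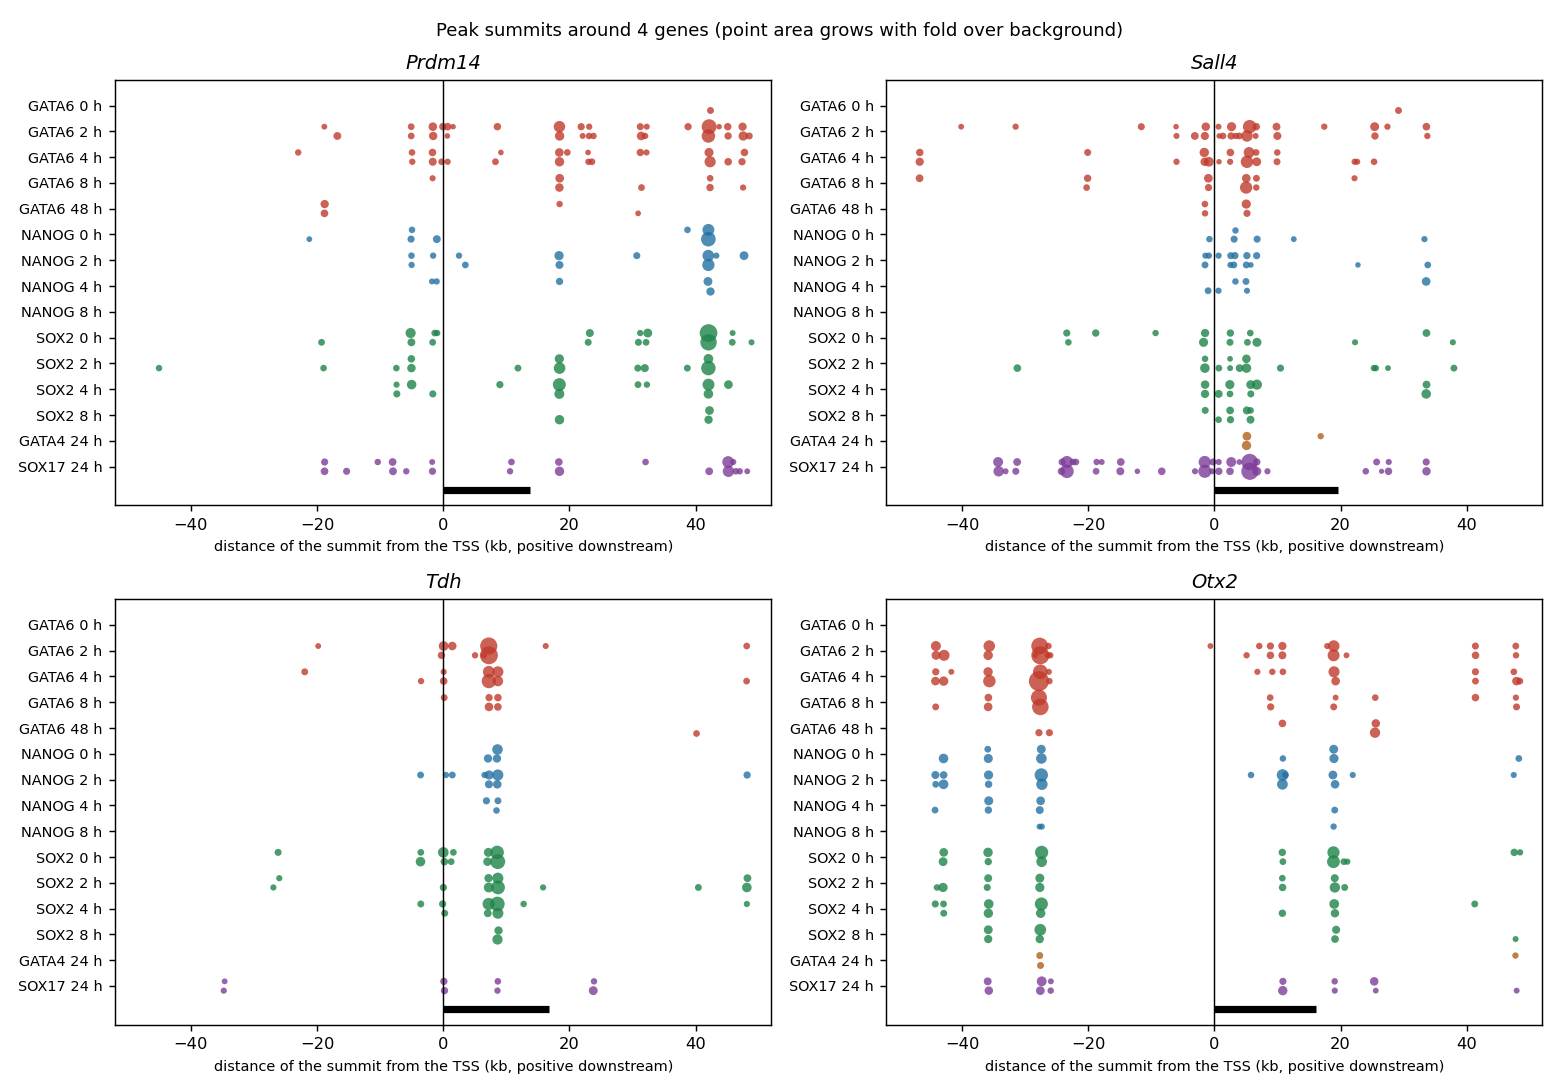
Peak summits within 50 kb of the TSS of Prdm14, Sall4, Tdh and Otx2 by group (rows, with the 2 lists of a group side by side), against the distance from the TSS in kb; point area grows with fold, and the black bar marks the gene. Columns of points mark sites used by several proteins, such as the one 42.1 kb downstream of the Prdm14 TSS and the one 27.8 kb upstream of the Otx2 TSS.

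The 6 sites with GATA6 in both 48 h lists were found at Sall4 (2), Tfcp2l1, Tbx3, Prdm14 and Otx2, and 2 of them had no GATA6 peak at 2 h. One of these was the Otx2 downstream site at chr14:48647979-48648637, 25.5 kb from the TSS, where GATA6 was 8.74 and 13.6 at 48 h and 4.69 in 1 list at 8 h. SOX17 was present there at 8.88 and 3.35 at 24 h. NANOG and SOX2 had no peak from 0 h to 8 h, and GATA4 had none at 24 h. None of these proteins was profiled at 48 h. The other lay 32.4 kb upstream of the Tfcp2l1 TSS in an intron of Clasp1, at chr1:118595473-118595766, with GATA6 at 6.83 and 7.52 at 48 h and GATA4 at 6.48 in 1 list. At Prdm14 the 48 h site was in untranslated exon sequence of Ncoa2, at chr1:13145581-13146465, with 8.30 and 6.82 at 48 h and 3.44 in 1 list at 2 h. The Tbx3 site, 21.7 kb upstream at chr5:119648678-119649475, had GATA6 in both lists from 2 h on, at 4.08 and 3.89 at 48 h. Under the record these 48 h values belong to 4 h.

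SOX17 peaks at 24 h were most numerous at Sall4, with 19 and 21 peaks, a mean that 0.0866% of all genes reached. Tbx3 had 11 and 17 and Prdm14 9 and 12, and the other 7 members had between 0 and 7 in either list. SOX17 was in both lists at 43 sites, 13 of them at Sall4 and 9 at Tbx3. Of the 43 sites, 32 had a GATA6 peak in at least 1 of the 2 h lists, beside 148 of all 260 sites near the members. The same share over all SOX17 sites of the genome was not determined. Of the 43, 6 had no peak of GATA6, NANOG or SOX2 in any list. These 6 were at Sall4 (3), Tdh (2) and Tbx3 (1). GATA4 lists were short near the members, with 9 and 3 peaks in all, and GATA4 was in both lists at 1 site each of Tfcp2l1, Sall4 and Otx2.

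NANOG peaks near the members numbered 27 and 42 at 0 h, 84 and 46 at 2 h, 27 and 22 at 4 h and 10 and 0 at 8 h. Tfcp2l1 had 5 and 6 peaks at 0 h, a mean that 0.556% of all genes reached, and Stat3 had 1 and 1. Between 0 h and 2 h none of the 10 members passed the test by limma, although 17.9% of all 16868 genes tested rose. At an unadjusted p under 0.05 there was 1 member, Stat3, which went from 1 and 1 to 7 and 4 peaks (1.66 ± 0.59 on the log2 scale, adjusted p = 0.101). Both 2 h values lay above both 0 h values at 4 members (Tfcp2l1, Tbx3, Sall4 and Stat3), compared with 53.3% of all genes. The median difference was 0.69 for the members and 1.00 for all genes. Without 0 h replicate 2, 1 member (Sall4) passed, beside 7.64% of all genes.

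Between 2 h and 8 h, 8 of the 10 members passed as lower by limma in the number of NANOG peaks, against 50.6% of all genes. Sall4 went from 7 and 7 peaks to 0 and 0 (-3.0 ± 0.51, adjusted p = 0.0110) and Tbx3 from 19 and 10 to 2 and 0 (-3.10 ± 0.67, adjusted p = 0.0197). Nr0b1, with 3 and 3 peaks at both 0 h and 2 h, was also at 0 and 0 (-2.00 ± 0.12, adjusted p = 0.000762). Its 2 NANOG lists were equal at every time, so this SE came from the trend over genes and not from a spread between lists. The remaining members that passed (Tfcp2l1, Prdm14, Zfp42, Stat3 and Tdh) had at most 2 peaks in either 8 h list. Otx2, with 3 and 0 peaks at 8 h, did not pass (adjusted p = 0.0644), nor did Nr5a2 (adjusted p = 0.235), whose 2 h and 8 h lists overlapped. The median was -2.29 for the members and -1.50 for all genes. The second 8 h list, with 2255 peaks, held none near any member, and no site near the members had NANOG in both 8 h lists. Only Nr0b1 passed without 8 h replicate 2 (18.4% of all genes), and only Zfp42 and Nr0b1 without 2 h replicate 1 (17.5%). With lists of equal length 0 of the 6 members tested passed, with 1 at an unadjusted p under 0.05, beside 18.3% of 3620 genes.

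SOX2 peaks near the members numbered 53 and 53 at 0 h, 32 and 75 at 2 h, 58 and 38 at 4 h and 23 and 18 at 8 h. Prdm14 had the most at 0 h, 8 and 9, a mean reached by 1.32% of all genes. The 2 h totals were further from each other than from the 0 h totals, and for every member the 0 h and 2 h numbers overlapped. By limma 0 members and 0 of 18614 genes passed between 0 h and 2 h (0%), with 0 members and 1623 genes at an unadjusted p under 0.05. Between 2 h and 8 h again 0 members and 0 genes (0%) passed, with 4 members (Prdm14, Nr0b1, Stat3 and Tdh) and 4625 genes at an unadjusted p under 0.05. Their differences were -1.44, -1.16, -1.90 and -1.66, with adjusted p values from 0.0985 to 0.199. At 6 members both 8 h numbers lay below both 2 h numbers, compared with 37.2% of all genes. Without 2 h replicate 1, 2 members (Sall4 and Nr0b1) passed, beside 7.34% of all genes.

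The sites that GATA6 reached at 2 h were compared with earlier and later occupancy. Peaks shared by both GATA6 2 h lists were merged into 44776 regions, of which 78 lay near the members: 22 at Tbx3, 10 at Stat3, 9 each at Prdm14, Sall4 and Otx2, 5 each at Tfcp2l1 and Nr5a2, 4 at Zfp42, 3 at Nr0b1 and 2 at Tdh. NANOG had occupied 25.6% and 37.2% of the 78 regions at 0 h (31.4% ± 8.16, SD, n = 2 lists), beside 15.4% and 21.5% of all regions. At 2 h the shares were 59.0% and 42.3% (50.6% ± 11.8) near the members and 60.5% and 40.1% over all regions, and at 4 h 26.3% ± 0.907 and 23.4% ± 0.371. SOX2 had occupied 43.6% and 42.3% at 0 h, beside 33.5% and 31.3% of all regions. The member shares at 0 h thus lay above those of all regions for both proteins, in every list, and at 2 h the 2 sets of NANOG shares overlapped. The difference between the members and all regions was not tested, and neither was the part that peak strength plays in it. Whether it holds under other rules for the GATA6 2 h regions was not determined.

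GATA6 itself was followed at the same regions. Of the 78 regions, 75% ± 0.907 had a GATA6 peak in the 4 h lists, 42.9% ± 0.907 in the 8 h lists and 11.5% ± 7.25 in the 48 h lists, beside 73.1% ± 4.14, 45.4% ± 1.92 and 8.27% ± 1.59 of all regions. Conversely, both NANOG 0 h lists shared 7515 regions, 23 of which lay near the members, with 4 each at Tfcp2l1 and Nr5a2 and 0 at Stat3. GATA6 was found at 89.1% ± 3.07 of these 23 at 2 h, 73.9% in both lists at 4 h and 56.5% in both lists at 8 h, beside 82.7% ± 5.29, 64.8% ± 2.69 and 35.9% ± 1.13 of all NANOG regions. NANOG itself was still found at 87.0% ± 6.15 of the 23 regions in the 2 h lists, 56.5% ± 6.15 in the 4 h lists and 10.9% ± 15.4 in the 8 h lists. Of all NANOG regions, 84.4% ± 9.40, 45.7% ± 0.687 and 8.74% ± 1.80 had a NANOG peak at these times. With 23 regions, 1 region is a large step, and these shares were not tested against the genome.

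**Figure D5:**
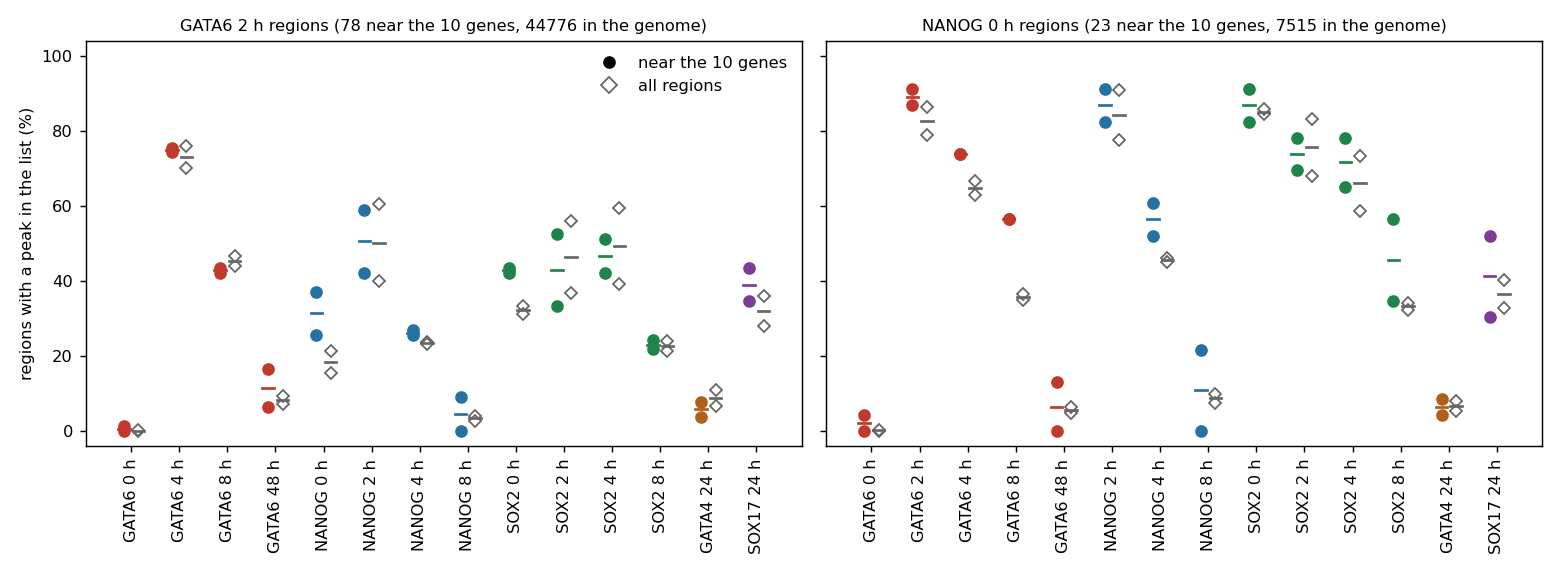
Percentage of GATA6 2 h regions (left) and NANOG 0 h regions (right) with a peak in each list of the other groups, near the 10 genes (colored circles) and over all regions (open diamonds); each point is 1 list and each bar the mean of 2. NANOG at 0 h covered 25.6% and 37.2% of the GATA6 2 h regions near the members and 15.4% and 21.5% of all.

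NANOG peaks at 2 h were divided by what had been there before. Near the members, 34 of 84 peaks in 1 list (40.5%) and 27 of 46 in the other (58.7%) overlapped a NANOG 0 h peak, beside 24.7% and 36.4% of all NANOG 2 h peaks. A further 36 and 15 (42.9% and 32.6%) had no NANOG 0 h peak but overlapped a GATA6 2 h peak, beside 47.2% and 46.2% of all NANOG 2 h peaks. At 8 sites NANOG was in both 2 h lists and in neither 0 h list, and 7 of these had GATA6 in both 2 h lists as well, 4 at Tbx3 and 1 each at Prdm14, Sall4 and Stat3. The same share over all such sites of the genome was not determined. For SOX2 at 2 h, 24 of 32 and 37 of 75 peaks near the members (75% and 49.3%) overlapped a SOX2 0 h peak, beside 54.2% and 38.2% of all SOX2 2 h peaks.

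Motifs were counted in the occupied windows near the members and in all windows of the same length. Of the 201-base windows centered on the GATA6 2 h regions, 46.2% of the 78 near members and 54.1% of all 44776 held a GATA motif, and 26.9% and 34.0% a SOX motif. The octamer occurred in 3.85% of member windows and 2.93% of all, and the nuclear receptor motif in 3.85% and 7.77%. In the NANOG 0 h windows a GATA motif was found in 43.5% of the 23 near members and 32.6% of all 7515, a SOX motif in 47.8% and 51.0%, the octamer in 8.70% and 5.23% and the nuclear receptor motif in 13.0% and 9.75%.

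Other genes of the network were counted in the same fits. Of 18 other pluripotency genes, 13 passed as lower in GATA6 8 h against 2 h by limma and 18 in 48 h against 2 h, beside the 52.8% and 82.0% of all genes. In NANOG 8 h against 2 h 16 of the 18 passed as lower, beside 50.6%, and in NANOG 2 h against 0 h 4 passed as higher, beside 17.9%. Of 15 PrE genes, 2 passed as lower in GATA6 8 h against 2 h and 5 in 48 h against 2 h, with medians of -0.22 and -0.54 on the log2 scale, beside -1.07 and -2.32 for the 10 members and -1.0 and -1.87 for all genes. Of the 14 PrE genes tested for NANOG, 5 passed as higher at 2 h and 6 as lower between 2 h and 8 h. No gene of either list passed in the SOX2 comparisons by limma.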

How the data were processed

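CUT&RUN peak lists of GATA6, NANOG, SOX2, GATA4 and SOX17 were used. The authors aligned reads to mm10 with Bowtie2, removed blacklisted regions with SAMtools, kept duplicates and called narrow peaks with MACS in each library against a control library. The deposited columns hold the fold over background as a ratio, and −log10 p and −log10 q values. Summits were assigned to GENCODE TSSs within 50 kb, and peaks overlapping by at least 1 bp were merged into sites. Fragment coverage was recovered from fold and p within 0.1%. For each protein, log2(number of peaks + 1) was fitted with limma 3.58.1 (trend, R 4.3.3), two-sided, over genes with peaks in at least 2 lists, called at a Benjamini-Hochberg adjusted p under 0.05, and the fit was tested on simulated data. Sites named were, per gene, those of highest mean GATA6 2 h, NANOG 0 h and GATA6 48 h fold. The members and lists were chosen with earlier results of these data known. Motifs were searched in the RefSeq GRCm38.p6 genome. Depth per library is known only through the recovered coverage, and the number of lists limits precision.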

Additional observations from a re-analysis of the deposited data

How the results depend on the processing

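Peak number near a gene depended on list length. With every list of a protein restricted to the same number of top peaks, 1 member passed in GATA6 8 h against 2 h, 1 in 48 h against 2 h, 1 in NANOG 2 h against 0 h, 0 in NANOG 8 h against 2 h and 2 in SOX2 8 h against 2 h, fewer genes could be tested, and the median of all genes was 0 in each. Under that restriction 1485 genes passed instead of 9913 and 3869 instead of 15338 in these GATA6 comparisons, 495 instead of 3035 and 661 instead of 8550 for NANOG, and 1345 (2 h against 0 h) and 1304 (8 h against 2 h) instead of 0 for SOX2. For SOX2 the other alternatives gave 0 to 520 and 0 to 466 genes. NANOG 2 h against 0 h gave 1884 genes without the filter, and NANOG 8 h against 2 h gave 4772 within 25 kb. Leaving out 1 list gave 5350 to 10153 genes for GATA6 8 h, 774 to 2865 for NANOG 2 h, 2589 to 7551 for NANOG 8 h and up to 429 and 1354 for SOX2. Under the recorded GATA6 times, 0 members (1731 genes) passed in the 8 h and 4 (9913 genes) in the 48 h comparison, since other lists enter. With −log10 q of at least 5, 1 member passed in NANOG 2 h against 0 h, beside 30.4% of all genes. Within 25 kb 1 member passed in SOX2 8 h against 2 h, beside 2.88% of all genes. The cause was not tested. Leaving out 1 list gave 2 to 8 members for GATA6 8 h, 10 to 10 for 48 h, 0 to 1 for NANOG 2 h, 1 to 7 for NANOG 8 h, 0 to 0 for SOX2 2 h and 0 to 2 for SOX2 8 h. Of the 58 alternatives for these counts other than leaving out a list, 49 stayed within 1.5 times the main count. The main count was 0 for NANOG 2 h, SOX2 2 h and SOX2 8 h, where this limit means only that the count stayed at 0. That held in 7, 9 and 7 of the 9 alternatives of each, respectively, and these are among the 49. The lists' replicate numbers did not pair them (correlations of deviations from -0.0859 to 0.0421). With a replicate block 4, 10, 0, 7, 0 and 0 members passed, beside 49.9%, 82.1%, 11.8%, 44%, 0% and 0% of all genes. In NANOG 2 h against 0 h these were 1992 genes. The share of GATA6 2 h regions near the members with NANOG at 0 h, NANOG at 2 h and GATA6 at 48 h became 63.9%, 66.7% and 22.2% with the top 10000 peaks of every list, over 18 regions. Taking regions of either GATA6 2 h list gave 16.9% and 27.7% for NANOG, and leaving out 1 list gave 19.6% to 37.2%, 31.9% to 59.0% and 6.31% to 16.7%. With the lists recorded as 48 h the GATA6 share was 42.9%, beside 45.4% of all regions. The shares over all regions were not determined with the top 10000 peaks, with regions of either list or without a GATA6 2 h list. The GATA6 0 h lists (86 and 882 peaks) had background coverages of 0.287 and 0.315, beside 0.290 in SOX2 8 h replicate 1 (14055 peaks), and the part of depth in missing peaks was not tested.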
